A study of Mus musculus with 6 samples.

Results

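Transcripts of 42 genes of DNA damage signaling, homologous recombination and excision repair were followed in regulatory T cells (Tregs) sorted from lung tumors, out of 15319 genes in the expression table. The members were chosen by gene symbol: sensors and kinases of the damage response, the chromatin readers that hold broken ends, end resection, the strand exchange machinery, Fanconi anemia proteins, polymerase theta, and the enzymes that mend single-strand breaks. All 42 symbols were found, with Mre11 listed as Mre11a and H2ax as H2afx, and each had counts in at least 5 of the 6 libraries. The mice carried Foxp3 Yfp-Cre, a Cre recombinase with a fluorescent tag made in Foxp3-expressing cells, in both groups. The cKO mice were also homozygous for a floxed Xrcc6 (Ku70, the DNA end-binding subunit that starts end joining), and the WT mice were not. Lung tumors were grown from LLC mouse lung carcinoma cells, injected through the tail vein into mice of 8 to 10 weeks, and the model ran for 21 days. RNA-seq was made from 3 WT and 3 cKO libraries. The labels do not say whether a library is 1 mouse or a pool, so the p-values below measure only the spread between these libraries.

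A double-strand break can be rejoined directly, which needs Ku, or repaired by copying a sister chromatid. In the second route the Mre11-Rad50-Nbn complex and its partners cut back one strand, RPA coats the exposed strand, and BRCA1, PALB2 and BRCA2 load the recombinase that searches for the matching sequence. ATM and ATR are the kinases that announce the damage, and 53BP1 with its partners opposes resection. Many recombination genes are made mainly in cells that replicate their DNA, and tumor Tregs are known as dividing cells.

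One WT library stood apart from the rest. WT replicate 2 had counts in 11513 genes against 14442 to 14737 in the other libraries. CPM are counts scaled to a common library total of 1e6, with that total TMM-scaled for all values but the next. Of the genes that averaged 2 to 5 CPM elsewhere, WT replicate 2 lacked counts for 30.7%, against at most 0.348% in any other library. Its depth was similar, with 19376740 counts in a range of 19032620 to 23159815, so counts over the members, and fold changes of members described in full, are given with and without it. Xrcc6 itself was measured at 20.9, 63.1 and 23.8 CPM in WT and at 5.24, 3.51 and 4.18 CPM in cKO, lower in 3 of 3 cKO libraries. Its log2 fold change was -3.06 with all libraries (edgeR quasi-likelihood test, adjusted p = 0.984) and -2.38 without WT replicate 2 (edgeR adjusted p = 0.0196). With all libraries in DESeq2, an alternative test, Xrcc6 passed the adjusted threshold at -3.05 (DESeq2 adjusted p = 1.22e-05). Its counts may include reads of the overlapping gene Desi1. All 11 Treg markers had counts in every library, and their summed level ran from 8586 to 11934 CPM in WT and from 8422 to 9736 CPM in cKO. Markers of other cells were present at lower levels: the 12 myeloid markers summed to 184 to 700 CPM in WT and 243 to 1035 CPM in cKO, and the 7 detected CD8 T and NK cell markers to 86.0 to 754 CPM in WT and 292 to 478 CPM in cKO. All 12 myeloid markers had a log2 fold change above 0 without WT replicate 2, with a median of 1.00, and S100a9, of neutrophils, passed the unadjusted threshold at 3.23 (adjusted p = 0.997 in edgeR). The 5 red blood cell markers summed to 0.717, 0 and 9.75 CPM in WT and to 10.9, 36.1 and 17.8 CPM in cKO, without overlap. The 6 B and plasma cell markers summed to 15.0 to 65.0 CPM in WT and 12.5 to 54.3 CPM in cKO. The 8 epithelial ones summed to 38.6 to 105 and 39.8 to 70.6 CPM. The 4 detected endothelial ones summed to 60.5 to 79.9 and 69.8 to 93.8 CPM, and the 6 stromal ones to at most 3.65 CPM in any library. Without WT replicate 2, all 6 B and plasma cell markers and all 4 endothelial ones had a log2 fold change above 0. Their medians were 1.35 and 0.88. Of the 8 epithelial ones, 7 were below 0. Mzb1, of the B and plasma cell list, passed the unadjusted edgeR threshold with and without that library, at 4.60 and 4.07. Its adjusted p in edgeR was 0.984 with all libraries and 0.997 without WT replicate 2. The part of these markers in the results was not tested. In bulk RNA, fewer cells of a type and less RNA per cell cannot be told apart.

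Promoters were read from RefSeq on GRCm38.p6, from 250 bases before to 50 after the start, for the 32 of 42 members with an entry. The E2F words TTTCCCGC, TTTCGCGC, TTTGCCGC and TTTGGCGC, searched on both strands, stood in 7 of 32 (21.9%: Bard1, Brca2, Chek2, Lig1, Mdc1, Rad51c and Topbp1), beside 2.6% of all 27025 promoters and 4.76% of the 9268 of genes at 1 CPM or more. E2F proteins are the factors of S phase transcription. The NRF1 motif stood in 12.5% of the members and 11.9% of promoters of genes at 1 CPM or more, the NF-Y word CCAAT in 53.1% and 43.4%, and the ETS word CCGGAAG in 28.1% and 21.3%. A match is a description of the letters, not a bound site. Stretches of 120 bases around the word are printed for 3 members, to show that it can stand far from the start or next to it, with the word in capitals. They lie on the plus strand at chr5:150522397-150522516 (Brca2, word 168 bases before the start), chr5:110839775-110839894 (Chek2, 152 bases before) and chr17:35841378-35841497 (Mdc1, 16 bases before).
Brca2: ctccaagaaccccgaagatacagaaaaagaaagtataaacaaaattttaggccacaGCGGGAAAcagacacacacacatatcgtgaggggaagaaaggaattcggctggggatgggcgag
Chek2: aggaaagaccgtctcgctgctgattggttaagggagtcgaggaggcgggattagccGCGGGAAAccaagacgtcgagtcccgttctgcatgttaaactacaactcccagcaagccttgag
Mdc1: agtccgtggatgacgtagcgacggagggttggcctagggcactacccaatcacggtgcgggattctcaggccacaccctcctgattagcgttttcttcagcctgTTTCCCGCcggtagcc
The Brca2 and Chek2 stretches hold the word as its reverse complement, GCGGGAAA. None of these 3 genes passed the unadjusted threshold with or without WT replicate 2.

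No member passed the adjusted threshold between cKO and WT, where 0% of the 15315 genes tested did so in edgeR, 0.0131% in DESeq2 and, without WT replicate 2, 0.00654% in edgeR, which is Xrcc6 alone. At an unadjusted p under 0.05, 1 of 42 members passed in edgeR (Trp53bp1, lower in cKO), where 1.81% of all genes passed, 0.94% higher and 0.868% lower. Trp53bp1 also passed in DESeq2, as did 2% of all genes, 0.62% higher and 1.38% lower. Without WT replicate 2 the count was 0 of 42, where 3.01% of all genes passed, 1.52% higher and 1.5% lower. Without WT replicate 1 it was 5 of 42, where 5.71% of all genes passed, 1.78% higher and 3.93% lower. Those 5 were Trp53bp1, Topbp1, Atr and Rif1, lower, and Rad51d, higher. The median log2 fold change of the members was -0.01, beside 0.04 over all genes, and -0.05 beside -0.01 without WT replicate 2. In the 6-library fit 20 members lay above 0 and 22 below.

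A p that misses the threshold does not bound a change, so the 95% intervals of the fold changes were read as well. With all 6 libraries the interval lay within a 2-fold change in either direction for 17 of 42 members, against 41.5% of all genes. Without WT replicate 2 it did so for 32 of 42, against 62.7% of all genes, and the median standard error of the members went from 0.36 to 0.19 on the log2 scale. The 10 members whose interval still reached beyond 2-fold were Brca1, Palb2, Rad51b, Rad51c, Xrcc3, Rad54l, Polq, Fanca, Fancd2 and Fanci. Each of them had a mean under 5 CPM, and all 28 members at or above that level had an interval inside 2-fold.

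**Figure D1:**
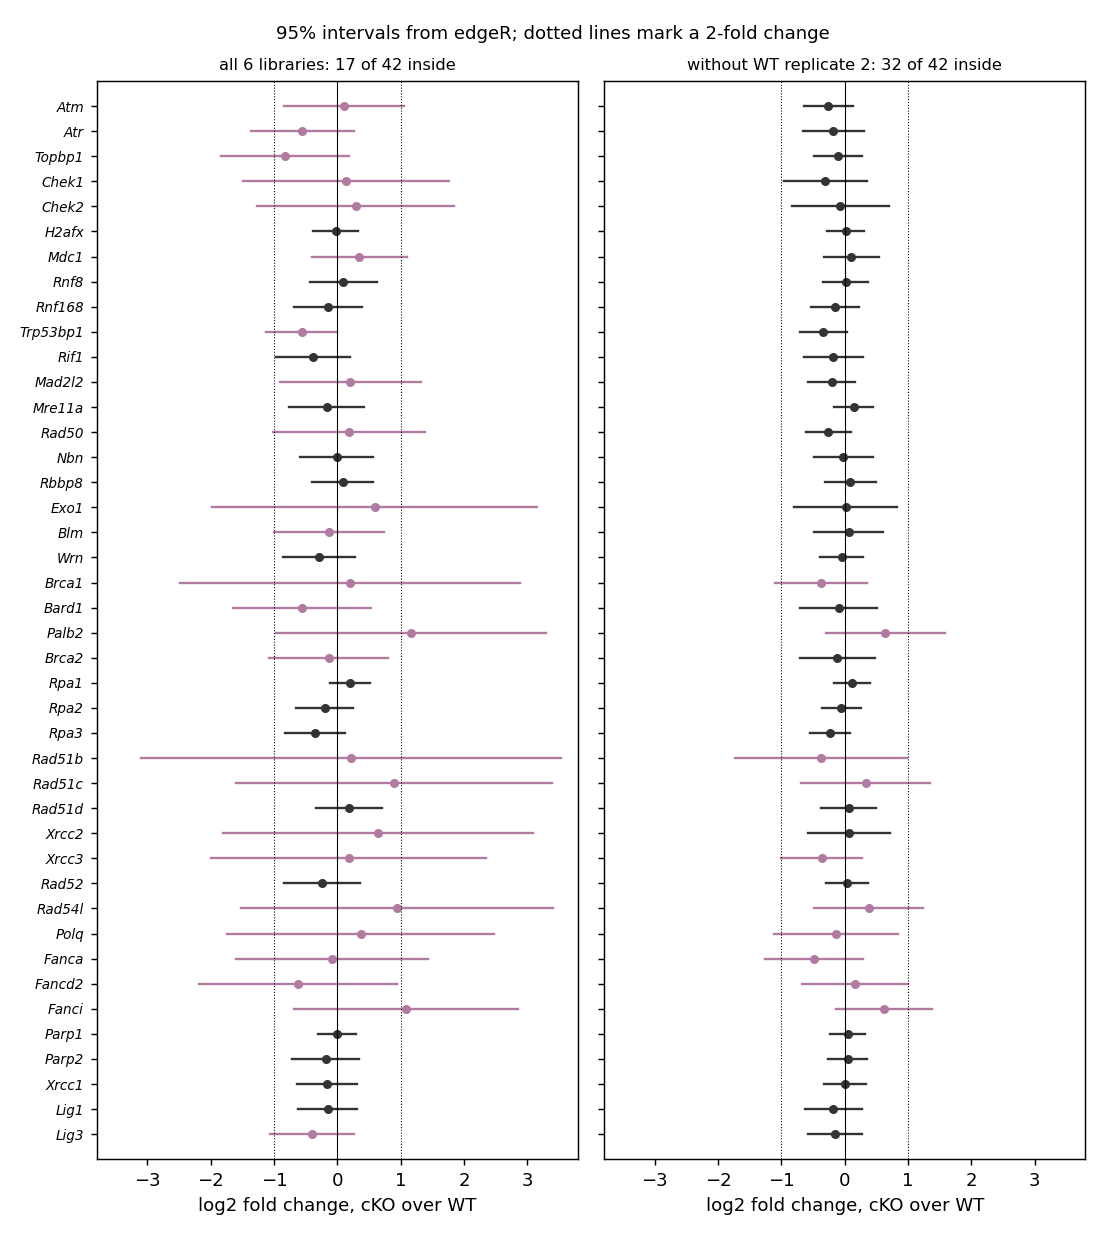
Log2 fold change of cKO over WT (horizontal axis) for each of the 42 members, as points with 95% intervals, with all 6 libraries (left) and without WT replicate 2 (right), with dotted lines at a 2-fold change. Intervals narrow without that library, and 32 of 42 then lie within a 2-fold change.

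Among the 12 damage signaling genes, Trp53bp1, which encodes 53BP1, had the smallest p. Its gene spans 121193281 to 121271407 of chromosome 2 (GRCm38) and shares ground with Tubgcp4 on the opposite strand, and the strand setting of the counting was not given in the sources used here. Its level was 26.8, 45.5 and 33.3 CPM in WT and 27.0, 20.5 and 23.8 CPM in cKO, or 35.2 ± 9.51 against 23.8 ± 3.27 (mean ± SD, n = 3 each). The groups overlapped at one point only, cKO replicate 1 lying just above WT replicate 1. The log2 fold change was -0.57 with a standard error of 0.24 (edgeR p = 0.0498, adjusted p = 0.984), and an exact two-sided permutation test gave p = 0.2, where 3 against 3 cannot go below 0.1. Without WT replicate 2 the log2 fold change was -0.34, with an interval of -0.71 to 0.03.

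Topbp1, which activates the ATR kinase, had the lowest fold change of the members. It was measured at 30.8, 98.3 and 36.9 CPM in WT and at 36.6, 26.1 and 31.3 CPM in cKO. The groups overlapped, and WT replicate 2 was far above the other 5 libraries. The log2 fold change was -0.82 with a standard error of 0.43 (edgeR p = 0.0973; exact permutation p = 0.4), and -0.11 without that library. Rif1, which acts with 53BP1 to restrain resection, was measured at 53.1, 98.8 and 80.9 CPM in WT and at 71.9, 51.2 and 54.6 CPM in cKO. Its groups overlapped, and the log2 fold change was -0.39 with all libraries and -0.18 without WT replicate 2.

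H2afx, the histone variant phosphorylated around breaks, was even across libraries. It was measured at 34.2, 39.7 and 38.1 CPM in WT and at 37.4, 37.3 and 35.1 CPM in cKO, so the cKO values lay inside the WT range. The log2 fold change was -0.03 with an interval of -0.38 to 0.33, and 0.02 with an interval of -0.28 to 0.31 without WT replicate 2. The kinase gene Atm read 25.6, 10.6 and 36.5 CPM in WT and 26.1, 26.6 and 25.1 CPM in cKO, where the cKO libraries sat between the WT extremes and the log2 fold change turned from 0.10 to -0.26 without WT replicate 2. Atr read 12, 28.3 and 17.9 CPM in WT and 15.5, 12.2 and 12 CPM in cKO. The checkpoint kinases that they activate were low, Chek1 at 0.893 to 4.78 CPM and Chek2 at 0.893 to 2.82 CPM in WT, with WT replicate 2 lowest for both. In cKO they were at 3.07 to 3.90 and 2.18 to 3.03 CPM.

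The ubiquitin ligases that recruit 53BP1 overlapped between groups as well. Rnf8 was at 14.8 to 19 CPM in WT and 16.6 to 19 CPM in cKO, and Rnf168 at 16.5 to 19.9 and 14.6 to 18.8 CPM. Mdc1, the scaffold on phosphorylated H2AX, spanned 9.59 to 21.3 CPM in WT and 18.2 to 20.4 CPM in cKO. Mad2l2, a shieldin subunit that blocks resection, spanned 8.55 to 38.2 CPM in WT and 26.1 to 31.2 CPM in cKO. Summed over the 12 genes, the level was 329 ± 46.4 CPM in WT and 278 ± 26.9 CPM in cKO (n = 3 each), with library sums of 281, 374 and 332 against 308, 257 and 269. All 12 intervals lay within 2-fold without WT replicate 2, and 4 did with it. Without WT replicate 2, 9 of the 12 lay below 0, with a median log2 fold change of -0.17 beside -0.01 over all genes. With all libraries 6 lay below 0, with a median of 0.03 beside 0.04. The cause was not tested.

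**Figure D2:**
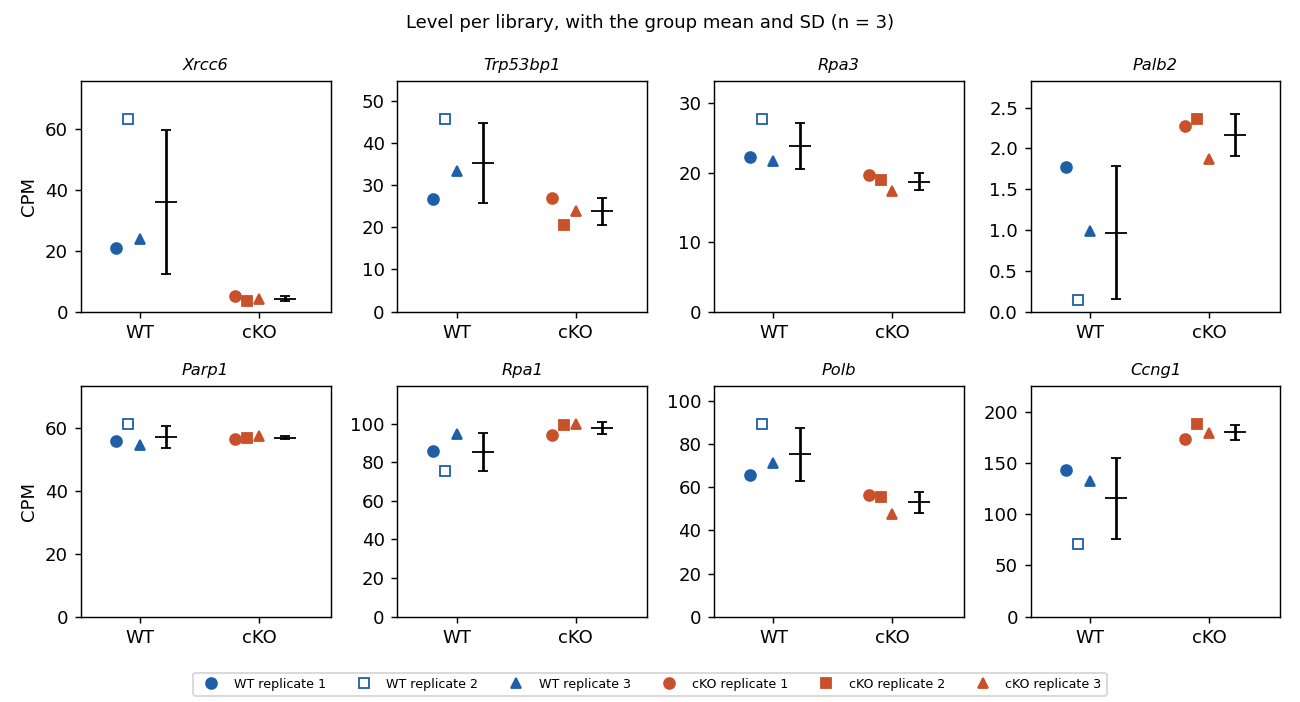
CPM in each library (vertical axis from 0) for Xrcc6, 5 members (Trp53bp1, Rpa3, Palb2, Parp1 and Rpa1), Polb and Ccng1, WT beside cKO, with a point per library and the group mean and SD (n = 3). The open symbol marks WT replicate 2, and the groups do not overlap for Xrcc6, Rpa3, Palb2, Polb and Ccng1.

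The 7 genes of end resection showed no member past the unadjusted threshold, with or without WT replicate 2. Rad50, the ATPase that tethers broken ends, was measured at 32.4, 8.08 and 42.6 CPM in WT and at 34.5, 29.5 and 29.9 CPM in cKO. WT replicate 2 was the lowest of the 6, and the log2 fold change turned from 0.18 with it to -0.26 without it. The nuclease partner Mre11a read 23.5, 40.8 and 24.3 CPM in WT and 25.1, 25.8 and 28.2 CPM in cKO. Here the same WT library was the highest, and without it the groups did not overlap, cKO being higher. Nbn, which recruits ATM to the complex, spanned 15.0 to 24.0 CPM in WT and 17.4 to 21.2 CPM in cKO.

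Rbbp8, the resection factor CtIP, spanned 19.9 to 28.0 CPM in WT and 23.2 to 28.0 CPM in cKO. The helicase genes Blm and Wrn spanned 6.36 to 10.8 and 22.4 to 39.8 CPM in WT, and 6.34 to 8.63 and 23.2 to 25.7 CPM in cKO. The exonuclease gene Exo1 had 51, 1 and 35 counts in WT and 54, 43 and 43 in cKO, so a single library set its WT minimum. The summed level of the 7 genes was 141 ± 9.93 CPM in WT and 137 ± 5.52 CPM in cKO, and all 7 intervals lay within 2-fold without WT replicate 2.

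Of the 14 homologous recombination genes, the RPA subunits that coat single-stranded DNA were among the highest per length. Rpa1 was measured at 86.0, 75.3 and 94.7 CPM in WT and at 94.3, 99.5 and 99.7 CPM in cKO, with 1 WT library just above the lowest cKO library. Its log2 fold change was 0.20 with an interval of -0.12 to 0.52, and 0.11 without WT replicate 2. Rpa3, on chromosome 6 from 8255936 to 8259173, was measured at 22.2, 27.6 and 21.7 CPM in WT and at 19.7, 19 and 17.3 CPM in cKO. Every cKO library lay below every WT library, and the log2 fold change was -0.35 with a standard error of 0.21 (edgeR p = 0.125; exact permutation p = 0.1, the smallest 3 against 3 can give). Without WT replicate 2 it was -0.24. Rpa2 spanned 26.8 to 38.4 CPM in WT and 27.2 to 28.6 CPM in cKO, so the 3 subunits did not share a direction.

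Palb2, the bridge between BRCA1 and BRCA2, had the highest fold change of the members and few counts. It lies on chromosome 7 from 122107262 to 122132985 and had 37, 3 and 19 counts in WT and 49, 49 and 42 in cKO, or 1.77, 0.141 and 0.990 against 2.27, 2.35 and 1.87 CPM. The groups did not overlap, cKO being higher. The log2 fold change was 1.16 with an interval of -0.98 to 3.29 (edgeR p = 0.243; exact permutation p = 0.1), and 0.64 with an interval of -0.29 to 1.58 without WT replicate 2. Brca1 itself had 72, 1 and 76 counts in WT and 78, 47 and 61 in cKO. Its partner Bard1 spanned 6.15 to 13.9 CPM in WT and 4.63 to 7.66 CPM in cKO, and Brca2, which loads the recombinase, 5.26 to 6.98 and 4.56 to 6.40 CPM.

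The recombinase paralogs varied in depth. Rad51b had 188, 0 and 44 counts in WT and 131, 108 and 42 in cKO, the one member with a count of 0, and its spread over the 5 libraries other than WT replicate 2 was 59.8% of the mean. A count of 0 there allows up to 3 counts, or 0.141 CPM. Rad51c had 35, 1 and 17 counts in WT and 31, 31 and 43 in cKO, Xrcc2 had 90, 2 and 62 against 78, 83 and 96, and Xrcc3 had 78, 5 and 78 against 71, 61 and 64. In each of these 4 genes WT replicate 2 was the lowest library. Rad51d was deeper, at 25.9 to 41.6 CPM in WT and 33.6 to 39 CPM in cKO.

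Rad54l, the motor that helps strand invasion, was measured at 4.3, 0.094 and 1.93 CPM in WT and at 4.41, 4.37 and 3.42 CPM in cKO. Its log2 fold change was 0.95 with a standard error of 1.05, and 0.38 without WT replicate 2. It overlaps Lrrc41 on the other strand. Rad52, an annealing factor, spanned 19.1 to 34.6 CPM in WT and 20.9 to 22 CPM in cKO. The summed level of the 14 genes was 229 ± 6.58 CPM in WT and 236 ± 1.09 CPM in cKO. Of the 14, 9 lay above 0 with all libraries, with a median log2 fold change of 0.19 beside 0.04 over all genes. Without WT replicate 2, 7 did, with a median of -0.01 beside -0.01.

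**Figure D3:**
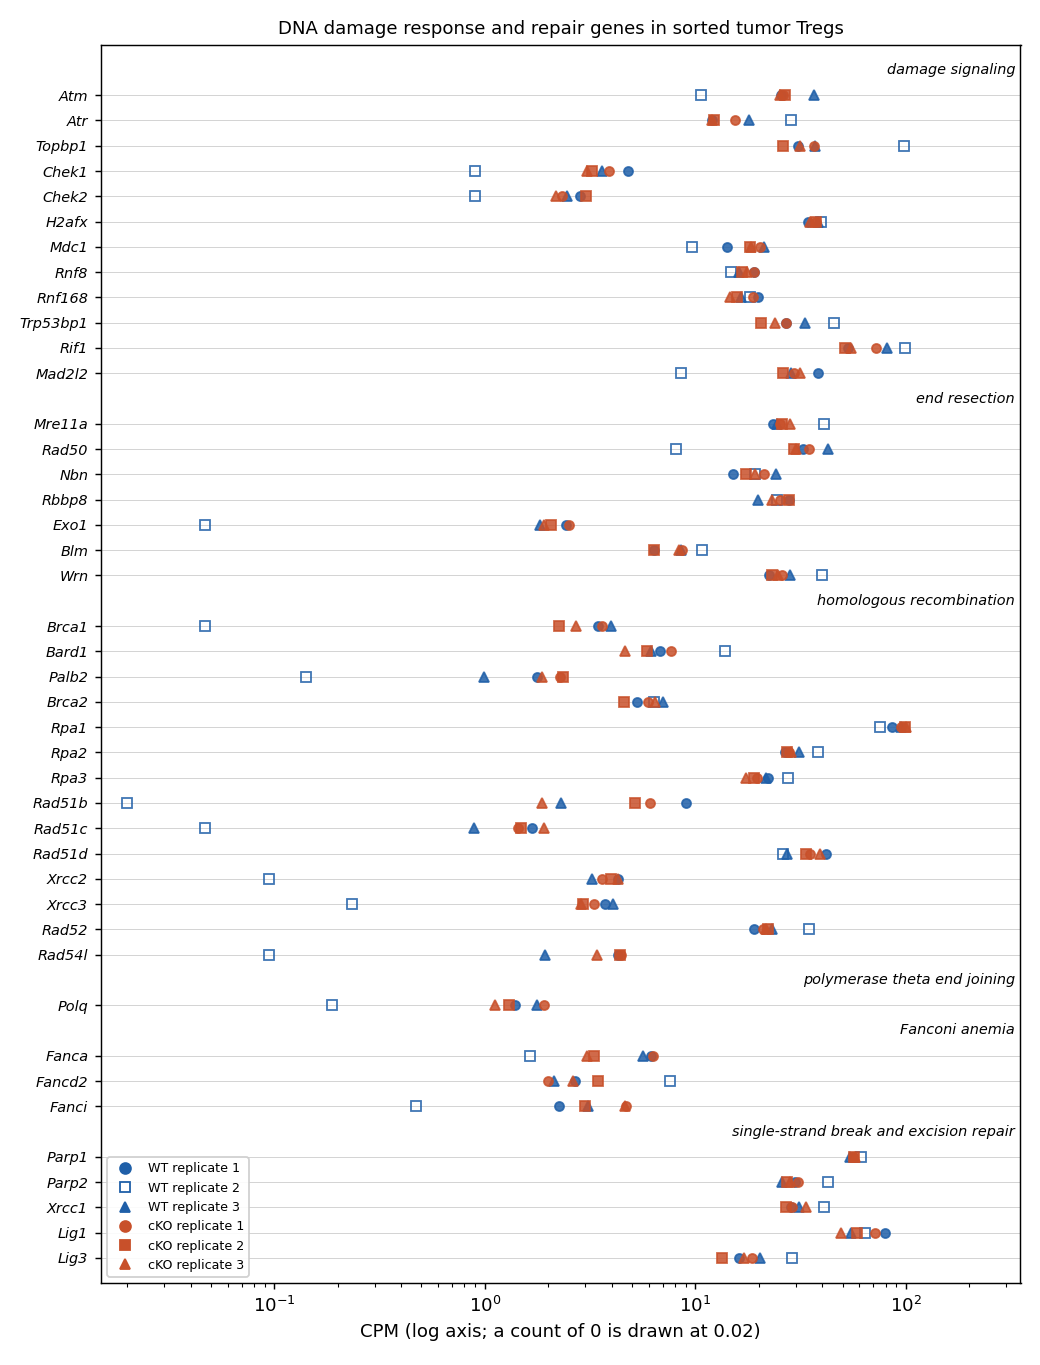
CPM of each of the 42 members in every library on a log axis, grouped by role, with WT replicate 2 as an open symbol and a count of 0 drawn at 0.02. In 13 of the 14 members under 5 CPM that library lies below the rest.

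Polymerase theta, the enzyme of a back-up end joining route that uses resected ends, was the lowest member per length. Polq was measured at 1.39, 0.188 and 1.77 CPM in WT and at 1.9, 1.3 and 1.11 CPM in cKO. The groups overlapped, with a log2 fold change of 0.37 with all libraries and -0.14, with an interval of -1.11 to 0.83, without WT replicate 2. The 3 Fanconi anemia genes, which act at DNA crosslinks, had similarly wide intervals. Fanci was measured at 2.25, 0.470 and 3.07 CPM in WT and at 4.69, 2.98 and 4.63 CPM in cKO. One cKO library lay below the highest WT library, and the log2 fold change was 1.08 (edgeR p = 0.193; exact permutation p = 0.2) and 0.62, with an interval of -0.14 to 1.38, without WT replicate 2.

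Its partner Fancd2 was measured at 2.68, 7.61 and 2.14 CPM in WT and at 2, 3.46 and 2.62 CPM in cKO, and the log2 fold change turned from -0.62 to 0.16 when WT replicate 2, its highest library, was left out. Fanca, of the core complex, was measured at 6.17, 1.64 and 5.63 CPM in WT and at 6.31, 3.31 and 3.07 CPM in cKO. Its groups overlapped, and the log2 fold change was -0.08 with all libraries and -0.48, with an interval of -1.26 to 0.29, without WT replicate 2. Fanci overlaps Polg, Fancd2 overlaps Fancd2os and Fanca overlaps Zfp276 on the other strand.

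The 5 genes of single-strand break and excision repair had the narrowest bounds. Parp1, the sensor that builds poly(ADP-ribose) at breaks, was measured at 55.7, 61.0 and 54.4 CPM in WT and at 56.3, 56.8 and 57.4 CPM in cKO. Over the 5 libraries other than WT replicate 2 its spread was 2.03% of the mean, where counting error alone gives 2.91%. The log2 fold change was -0.01 with an interval of -0.31 to 0.29, and 0.045 without WT replicate 2, where the interval ran from 0.854-fold to 1.25-fold. Lig1, the ligase of replication and long-patch repair, was measured at 79.6, 64.1 and 54.9 CPM in WT and at 70.9, 58.4 and 49.1 CPM in cKO. The libraries of both groups interleaved, and the log2 fold change was -0.15 with an interval of -0.62 to 0.32, and -0.18 without WT replicate 2.

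Parp2 spanned 25.7 to 42.5 CPM in WT and 27.3 to 30.7 CPM in cKO. The scaffold Xrcc1 spanned 28.3 to 40.8 and 27.0 to 33.6 CPM, and its ligase partner Lig3 16.1 to 28.6 and 13.3 to 18.6 CPM. All 5 intervals lay within 2-fold without WT replicate 2, and together they spanned -0.63 to 0.36 on the log2 scale. The summed level was 211 ± 25.5 CPM in WT and 191 ± 12.2 CPM in cKO. All 5 lay below 0 with all libraries, with a median log2 fold change of -0.17 beside 0.04 over all genes. Without WT replicate 2, 2 did, with a median of 0.01 beside -0.01.

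**Figure D4:**
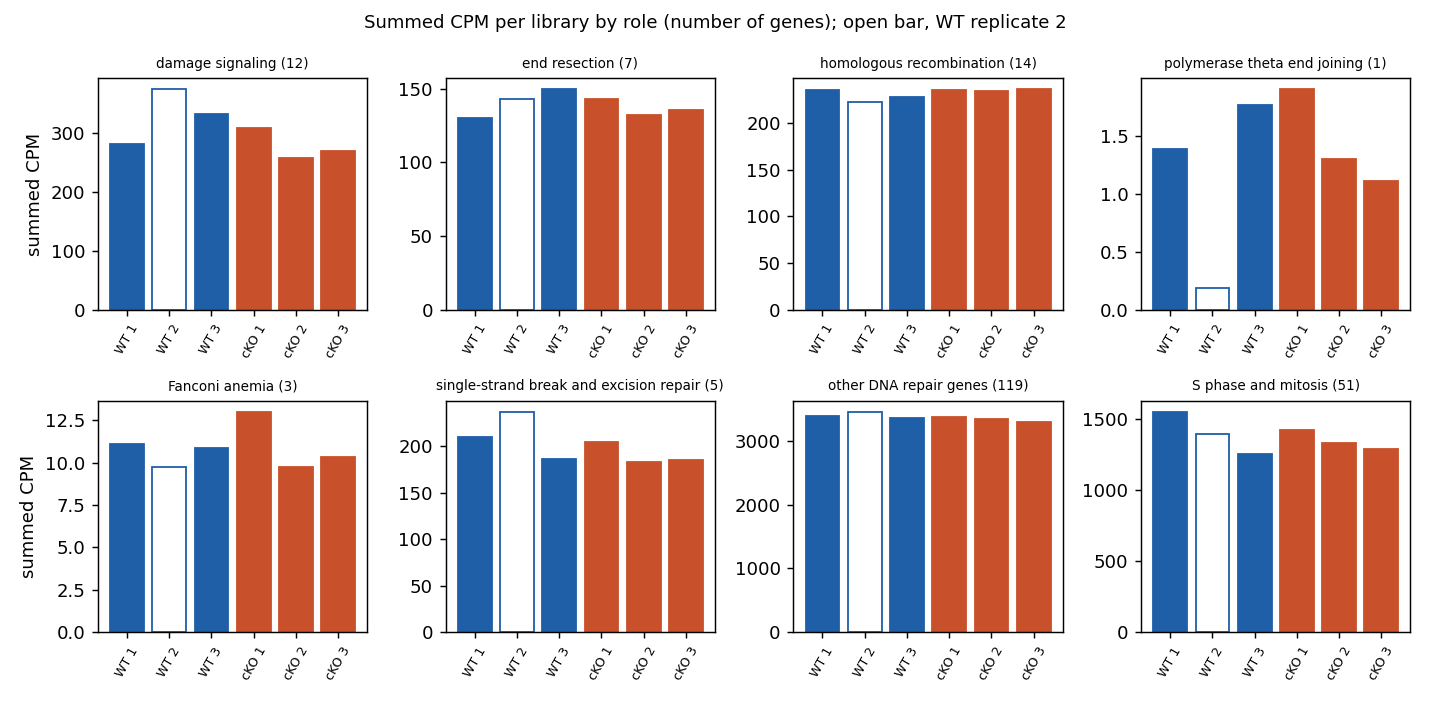
Summed CPM (vertical axis from 0) in each library for the members of each role, for the 119 other DNA repair genes and for the 51 genes of S phase and mitosis, with 1 bar per library and WT replicate 2 open. The sums of the WT and cKO libraries overlap in every panel.

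WT replicate 2 lay at an extreme for most members, low for those with few counts and to either side for the rest. Of the 14 members with a mean under 5 CPM it was the lowest of the 6 libraries in 13, Fancd2 being the exception, where it was the lowest in 56.8% of all genes from 1 to 5 CPM and had no counts in 34.7% of them. The summed level of these 14 members was 50.7, 12.4 and 37.8 CPM in WT and 48.3, 41.9 and 37.5 CPM in cKO. Of the 28 members at 5 CPM or more it was the highest library in 16 and the lowest in 7, beside 37.2% and 40.5% of all genes at that level. The level of 5 CPM was chosen after the values were seen. Without this library, 5 of 42 members had groups that did not overlap (Mre11a, Palb2 and Parp1 higher, Rpa3 and Xrcc3 lower), where 16% of all genes did, 8.48% higher and 7.53% lower. With it there were 2 of 42 (Palb2 higher and Rpa3 lower), where 8.24% of all genes did, 5.01% higher and 3.23% lower. Without WT replicate 1 there were 17 of 42, where 26.8% of all genes did, and of the 17 members 7 were higher, beside 15.3% of all genes, and 10 lower, beside 11.6%.

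**Figure D5:**
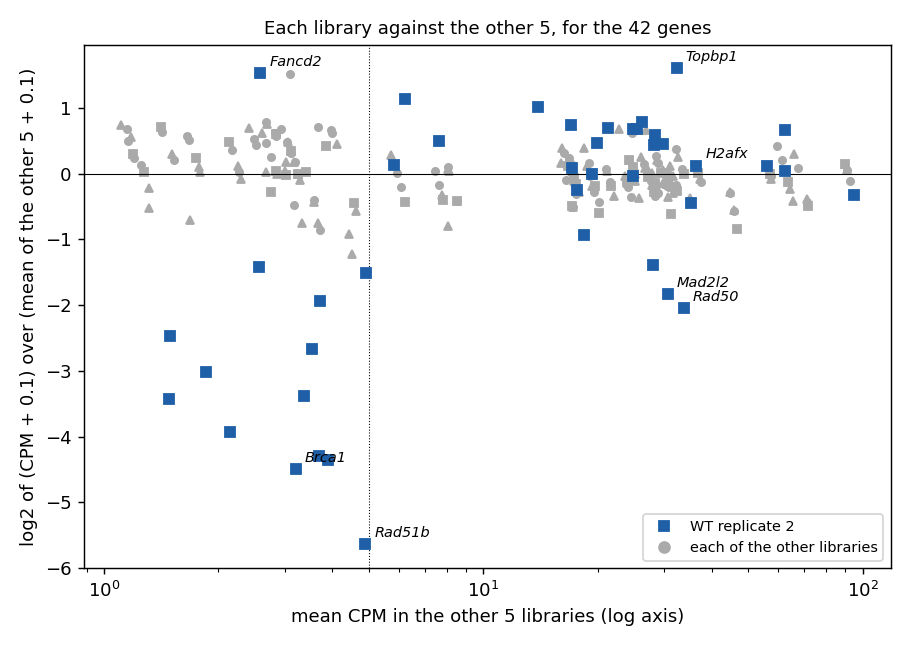
Log2 ratio of each library to the mean of the other 5 (vertical axis, 0.1 CPM added to both) against that mean in CPM (log axis) for the 42 members, with WT replicate 2 in color and the other libraries in grey. The colored points fall far below 0 under 5 CPM, marked by the dotted line, apart from Fancd2, and lie on both sides of 0 above it.

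The rest of the repair network gave few calls as well. Of 119 other DNA repair genes with counts, 1 passed the unadjusted threshold, Polb, lower in cKO, beside 1.81% of all genes, and none passed the adjusted one. Polb encodes the gap-filling polymerase of base excision repair and lies on chromosome 8 from 22628126 to 22653435. It was measured at 65.8, 89.3 and 71.2 CPM in WT and at 56.2, 55.4 and 47.6 CPM in cKO, with every cKO library below every WT library. The log2 fold change was -0.51 with a standard error of 0.17 (edgeR p = 0.017, adjusted p = 0.984; exact permutation p = 0.1), and -0.37 without WT replicate 2 (p = 0.0217, adjusted p = 0.997). The median over the 119 genes was -0.01, and -0.02 without that library.

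Without WT replicate 2, 3 of the 119 passed the unadjusted threshold, beside 3.01% of all genes, and 106 had an interval within 2-fold. Besides Polb these were Ercc1, a nuclease subunit of nucleotide excision repair, at a log2 fold change of -0.42, and Ppm1d, a phosphatase that ends checkpoint signaling, at 0.33. Ercc1 was measured at 23.6, 2.96 and 20.7 CPM in WT and at 15.2, 17.9 and 16.7 CPM in cKO, so WT replicate 2 lay below the cKO libraries and the other WT libraries above them. By pathway, none of the 26 other recombination genes, 12 other Fanconi genes, 7 mismatch repair genes or 13 translesion genes passed with or without that library.

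Because recombination genes follow the cell cycle, 51 genes of S phase and mitosis were set beside the 12 members known for that pattern. The 12 members had a median log2 fold change of 0.17, and -0.04 without WT replicate 2, and the 51 genes 0.06 and -0.07. Of the 51, 4 passed the unadjusted threshold, all lower in cKO (Pole, E2f1, Mcm10 and Cdk1), where 0.868% of all genes passed in that direction. Of these, 2 did without WT replicate 2 (Pole and E2f1), where 1.5% of all genes passed as lower. Pole, the leading-strand polymerase, was measured at 4.59, 15.1 and 5.73 CPM in WT and at 2.78, 2.83 and 3.42 CPM in cKO, and its log2 fold change was -1.49 with all libraries and -0.77 without WT replicate 2. E2f1, a transcription factor of S phase entry, was measured at 14.8, 33.1 and 9.22 CPM in WT and at 9.56, 7.40 and 7.38 CPM in cKO, with log2 fold changes of -1.23 and -0.57. Mcm10, a replication initiation factor, was measured at 3.97, 24.4 and 3.49 CPM in WT and at 3.43, 2.31 and 2.54 CPM in cKO, and its log2 fold change was -1.94 with all libraries and -0.44 without that library. None of these passed the adjusted threshold, and the summed level of the 51 genes was 1398 ± 149 CPM in WT and 1347 ± 68.8 CPM in cKO.

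Targets of p53, the factor that damage kinases stabilize, were read the same way. Their median log2 fold change was 0.06 with all libraries, with 8 of 15 above 0. Without WT replicate 2 it was 0.27, with 13 of 15 above 0. Over all genes the medians were 0.04 and -0.01. The cause was not tested. Of 15, 1 passed the unadjusted threshold, Ccng1, a cyclin induced by p53, higher in cKO, where 0.94% of all genes passed as higher. It was measured at 144, 70.5 and 133 CPM in WT and at 173, 188 and 180 CPM in cKO, with groups that did not overlap and a log2 fold change of 0.64 (edgeR p = 0.0415, adjusted p = 0.984; exact permutation p = 0.1), or 0.38 without WT replicate 2. Without that library 3 of 15 passed, all higher, where 1.52% of all genes passed in that direction: Ccng1, Plk2 and Phlda3. Plk2, a kinase induced by p53, was measured at 30.6, 103 and 48.5 CPM in WT and at 53.8, 52.7 and 57.7 CPM in cKO, and its log2 fold change was 0.47 without WT replicate 2, its highest library, and -0.15 with it. Phlda3, a p53-induced inhibitor of Akt, was measured at 4.59, 0 and 3.8 CPM in WT and at 8.12, 9.18 and 9.83 CPM in cKO, and its log2 fold change was 1.69 with all libraries and 1.11 without WT replicate 2 (edgeR p = 0.00109, adjusted p = 0.997; exact permutation p over all 6 libraries = 0.1).

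Per kilobase of exon, H2afx had the highest level of the members at 26.7 CPM per kilobase, followed by Rpa3 at 18.7, Rpa1 at 16.4 and Lig1 at 14.7, and Polq had the lowest at 0.132. The members are spread over 14 chromosomes, with 6 each on chromosomes 9 and 11. Lig3 and Rad51d lie 72159 bases apart on chromosome 11. The spans of 11 members overlap another protein-coding gene, so their counts may hold reads of that gene.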

How the data were processed

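RNA-seq of Tregs sorted from lung tumors was read from one table of 3 WT and 3 cKO libraries. The deposited values are expected counts per gene, made by the authors from BGI-Seq500 paired-end reads on GRCm38. The submitters' processing notes name Bowtie2 2.3.4.3 and RSEM 1.3.1, without their role, and the annotation and strand setting were not given in the sources used here. Of the values, 21.6% were not whole (tolerance 1e-06), and all were rounded. Genes with at least 1 count (15315) were tested, cKO against WT, with edgeR 4.0.16 (quasi-likelihood, TMM scaling, Benjamini-Hochberg adjustment over all genes; R 4.3.3). CPM are TMM-scaled. Intervals are the log2 fold change ± the t quantile times its standard error, the absolute log2 fold change over the root of F. Single genes were also compared by exact two-sided permutation tests (scipy 1.17.1). The code was tested on simulated data.

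Totals ran from 19032620 to 23159815 counts, and 3 counts were worth 0.133 to 0.156 CPM. The upper bound of 3 counts given for Rad51b covers counting error only. The intervals of the fold changes use standard errors from the fits, which include the spread between libraries. Replicates differed by more than sampling noise. Alternatives were DESeq2 1.42.0, other scalings, a low-count filter, limma 3.58.1 with voom quality weights, the replicate number as a block, and leaving out each library. Members named in full were those with an unadjusted p under 0.05, the 3 highest and 3 lowest fold changes at a mean of at least 1 CPM, the 3 highest levels per kilobase, and the highest CPM of each role. From the other repair, cell cycle and p53 lists, up to 3 genes per direction were named by p. Mre11a and the remaining members were given by values or ranges, and Ercc1, Ppm1d, Plk2, Phlda3, Cdk1, Parp1 and Atr were named after their values were seen. The members and lists were chosen with earlier results of these data known. Gene positions are from GENCODE on GRCm38.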

Additional observations from a re-analysis of the deposited data

How the results depend on the processing

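No member passed the adjusted threshold under any alternative run. The count at an unadjusted p under 0.05, 1 in edgeR, was also 1 in DESeq2 and with voom quality weights, and it was 0 with median-of-ratios scaling, with library size only, with the low-count filter, with the replicate number as a block, and in DESeq2 without WT replicate 2. Leaving out each library gave 0 to 5, the 5 without WT replicate 1, where 5.71% of all genes passed. The cause was not tested. Members with an interval within 2-fold numbered 29 with voom quality weights, 32 in DESeq2 without WT replicate 2, and 13 to 32 with a library left out. In edgeR the 32 came without WT replicate 2, where 62.7% of all genes had such an interval. For the others of these settings the share of all genes was not counted. Members whose groups did not overlap numbered 3 to 17 with a library left out, the 17 without WT replicate 1, where 26.8% of all genes did so. The cause was not tested. Without WT replicate 2 there were 5, where 16% of all genes did so. Without WT replicate 3 or a cKO library the share of all genes was not counted, so those counts show nothing particular to the members. For the other DNA repair genes the unadjusted count was 2 with voom quality weights and 2 with the replicate block. It was 3 in DESeq2 without WT replicate 2 and 0 to 8 with a library left out. The 8 of 119 came without WT replicate 1, where 5.71% of all genes passed. The share of all genes was not counted with voom quality weights, the replicate block, or DESeq2 without WT replicate 2. Nor was it counted without WT replicate 3 or without a cKO library. The median log2 fold change of these repair genes was -0.072 with library size only, beside -0.012 over all genes. With a library left out it ran from -0.038, without cKO replicate 1, to 0.047, without WT replicate 3. Over all genes the medians in those fits were 0.037 and 0.101.

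Some fold changes turned sign. Fanca was 0.050 with the replicate block. With voom quality weights Fancd2 was 0.16, Rad50 -0.24 and Polq -0.19. In DESeq2 without WT replicate 2 Fancd2 was 0.16, Rad50 -0.26, Polq -0.14 and H2afx 0.014. With a library left out, Fanca ran from -0.49 to 0.22, Fancd2 from -0.92 to 0.16, H2afx from -0.087 to 0.017, Rad50 from -0.26 to 0.63 and Polq from -0.14 to 0.86. WT replicate 2 alone turned Fancd2, Rad50 and Polq. Of 260 pairs of a named gene and an alternative, 240 kept direction and side of the adjusted threshold, 17 turned sign and 3, all Xrcc6, gained the call. At the unadjusted threshold, which 7 named genes passed, 33 of their 91 pairs with an alternative lost the call: Trp53bp1 in 10 of 13, Mcm10 in 8, E2f1 in 6, Pole and Ccng1 in 4 each, Polb in 1 and Xrcc6 in 0.

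To look for pairing, each gene's group mean was subtracted from its log2 level (0.5 CPM added), over genes with a mean of at least 1 CPM. These deviations, not the expression profiles themselves, gave correlations of 0.114, -0.0941 and 0.211 between libraries with the same number. The value for replicate 3 was the highest of any WT and cKO pair, and that for replicate 2 was negative. WT replicate 1 correlated best with cKO replicate 2 (0.161). These values did not settle whether the numbers pair the libraries, so the main fit was unpaired and the replicate number was used as a block in an alternative. Counting error is largest for the 14 members under 5 CPM, and Rad51b, Fanca, Fanci and Rad54l spread further than it over the 5 libraries other than WT replicate 2 (59.8%, 32.3%, 30.8% and 28.9% of the mean, beside 9.87%, 9.89%, 11.6% and 11.3%).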
